A study of Gossypium herbaceum with 12 samples.

Results

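The standing difference between Vagad and RAHS-14 was measured in the roots of well watered plants. Vagad is a drought-tolerant and RAHS-14 a drought-sensitive genotype of Gossypium herbaceum, a diploid cotton grown in dry regions of Asia and Africa. The 3 arrays titled Tolerant-Water, which hold root RNA of Vagad, were set against the 3 titled Sensitive-Water, which hold root RNA of RAHS-14, out of 12 arrays in all. The other 6 arrays hold roots of both genotypes under drought. Plants were 1 month old, grown in pots in a glass house, and the watered pots were irrigated every day. Each array is a biological replicate, and the question is which transcripts already differed in the absence of drought. The labels give only the words tolerant and sensitive, and the names of the genotypes are those of the study.

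Each value is the intensity of a probe set, a group of short probes that together read the transcript of a cotton gene, on the Affymetrix cotton array. Of the 24132 probe sets in the table, 103 Affymetrix controls were left out and 24029 were compared. Intensities below 16 were set to 16, called the floor here, before log2 values were taken. Differences are on the log2 scale, Vagad minus RAHS-14, and a probe set counted as called where they reached 2-fold and limma returned a p under 0.05 after Benjamini-Hochberg adjustment. Where the dimmer genotype averaged at or below the floor, its fold is given as a lower bound, "at least N-fold". A genotype with all 3 arrays at the floor has no spread of its own after flooring, so the standard error then rests on the other genotype.

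Roots meet soil microbes, nematodes and falling water supply with a chemical and a mechanical defence. Cotton makes defensive terpenoids such as gossypol from farnesyl pyrophosphate, sterols from squalene, and flavonoids from chalcones. Ethylene and jasmonate switch defence genes on, pathogenesis-related proteins attack the walls of invaders, and the touch genes, which Arabidopsis turns on within minutes of bending, encode calmodulin-like proteins and enzymes that loosen xyloglucan in the cell wall. Transcription factors of the AP2/ERF, DREB, NAC and WRKY families control large parts of these responses.

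Probe sets are printed with the point after the species prefix dropped, so that an ID of the array that starts with Ghi and a point starts here with Ghi and the number. Gene names came from the annotation in the supplementary tables of the study, which covers 1056 of the probe sets and gives a usable name for 906. Most names are those of the best match in Arabidopsis, poplar or another plant, so a role stated below is that of the named relative. The study chose these probe sets on the same arrays, 321 of them for watered roots. The counts over gene families below are therefore not independent evidence of a direction.

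The 6 arrays resembled each other closely. Their median intensity ranged from 60.8 to 64.6 in watered Vagad and from 66.9 to 74.1 in watered RAHS-14. The share of probe sets at the floor ranged from 25.6% to 29.8%. Across probe sets each array correlated on average at 0.989 to 0.993 with the arrays of its own genotype and at 0.979 to 0.984 with those of the other. The median SD of log2 values over all probe sets was 0.138 in Vagad and 0.112 in RAHS-14. Of the 11 probe sets fixed as root markers, the summed intensity ranged from 9811 to 10209 in Vagad and from 15803 to 17002 in RAHS-14, and 5 of the 11 were lower in Vagad. Of these 5, 4 were the probe sets of the root protein MIC1, which is described below. Of 10 probe sets for the leaf genes LHB1B1 and PORA, the sum ranged from 2454 to 2744 in Vagad and from 3638 to 3771 in RAHS-14, and 2 were lower in Vagad. The lower probe sets of both marker sets were all among those that the study had listed for watered roots on these same arrays. The sums are therefore not an independent reading of tissue content. The 3′ to 5′ signal ratio of the ubiquitin control was 1.75 on Vagad replicate 1 and 3.91 to 4.76 on the other 5 arrays. The part of differing tissue content or RNA quality in the results was not tested. In whole roots, fewer cells of a type and less RNA per cell cannot be told apart.

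In watered roots 194 probe sets were higher and 236 were lower in Vagad than in RAHS-14, which is 0.807% and 0.982% of those tested, and 1.79% together. Most of the transcriptome did not separate the genotypes. Of all probe sets, 97% differed by less than 2-fold and 66.9% by less than 1.2-fold, and the median log2 difference was 0. These shares include 15.6% of probe sets at the floor on all 6 arrays, whose difference is 0 by the flooring. For the 10978 probe sets with a geometric mean above 100 the median was -0.0178. The differences that were called were often large. Among the higher probe sets 61 reached 4-fold, 21 reached 8-fold, 13 reached 16-fold and 6 reached 32-fold. Among the lower ones 48 reached 4-fold, 15 reached 8-fold, 7 reached 16-fold and 3 reached 32-fold. The median fold was 2.80 for the higher and 2.74 for the lower probe sets. The higher ones had a median intensity of 484 in Vagad, with 69 of them above 1000, and the lower ones a median of 204 in RAHS-14, with 33 above 1000. In each of the 430 called probe sets the 3 arrays of one genotype lay above the 3 of the other, which was true of 13.1% of all probe sets with Vagad above and 15.2% with Vagad below.

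**Figure D1:**
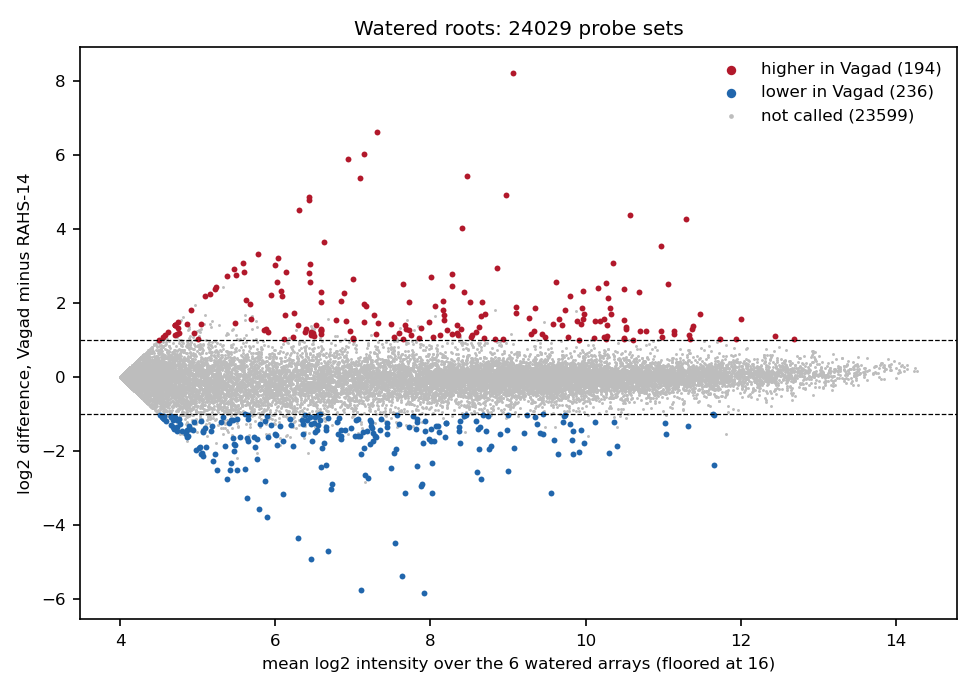
Log2 difference, Vagad minus RAHS-14, against the mean log2 intensity over the 6 watered arrays, 1 point per probe set, with 194 called higher, 236 called lower and the rest in grey. Dashed lines mark 2-fold. The largest difference, at the top, is the squalene monooxygenase probe set at 8.21, and the slanted edges on the left are where one genotype sits at the floor.

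The counts depended on single arrays and on scaling. Without watered Vagad replicate 2 there were 126 higher and 145 lower probe sets, without Vagad replicate 3 there were 139 and 135, and without RAHS-14 replicate 1, 2 or 3 there were 136 and 114, 136 and 109, or 124 and 122. In all, 99 of the higher and 80 of the lower probe sets were called in each of the 6 fits that left out 1 array. Median centring, which removes a difference of 0.15 on the log2 scale between the array medians of the genotypes (Vagad minus RAHS-14, -0.15), gave 254 higher and 161 lower, so the share of calls that were higher was 61.2% in place of 45.1%. A fit over all 12 arrays, which brings in the droughted Vagad arrays with their wide spread, called 28 higher and 20 lower probe sets, all of them among the 430.

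Squalene monooxygenase, which makes the epoxide from which sterols and triterpenes are built, gave the largest difference in either direction. Probe set Ghi482.1.A1_s_at read 10746, 8942 and 8254 on the watered Vagad arrays and 32.8, 24.6 and 37.7 on those of RAHS-14. The RAHS-14 arrays were near the floor and each Vagad array was far above it, a 297-fold difference (log2 difference 8.21 with a standard error of 0.20, adjusted p = 0.000588). A second squalene monooxygenase probe set, Gra2985.2.S1_s_at, read 761, 1455 and 757 in Vagad and was below the floor on each RAHS-14 array, at least 58.9-fold higher in Vagad (adjusted p = 0.00304).

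Selenium-binding protein 1 (SBP1), a family tied to sulphur metabolism and heavy metal handling in Arabidopsis, was higher in Vagad at both its probe sets. Ghi585.1.S1_s_at read 1619, 1559 and 1574 in Vagad, against 7.28, 2.87 and 2.90 in RAHS-14, all below the floor, at least 99.0-fold higher in Vagad (adjusted p = 5.26e-07). Ghi5776.1.S1_at, under the same name, was bright in both genotypes and read 10652, 11017 and 11412 in Vagad and 543, 573 and 594 in RAHS-14 (log2 difference 4.27 with a standard error of 0.05, adjusted p = 0.000111). The arrays within each genotype differed far less than the genotypes did.

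Several other transcripts were clear in Vagad and at or near the floor in RAHS-14. BIG BROTHER (GraAffx9185.1.S1_s_at), a ubiquitin ligase that limits organ size in Arabidopsis, read 965, 1209.9 and 1276 in Vagad and 9.99, 20.6 and 12.5 in RAHS-14, higher in Vagad by at least 65.6-fold (adjusted p = 0.000719). A probe set named both for an RNA-directed DNA polymerase, the enzyme of retroelements, and for a serine/threonine protein kinase (GhiAffx12340.1.S1_at) read 408, 475 and 479 in Vagad and 8.11, 17.5 and 10.6 in RAHS-14, higher in Vagad by at least 27.5-fold (adjusted p = 0.000279). The tau-class glutathione transferase GSTU7 (GhiAffx36353.1.S1_at), which joins glutathione to toxic compounds, read 348, 413 and 381 in Vagad and 17.7, 15.9 and 10.8 in RAHS-14, higher in Vagad by at least 22.9-fold (adjusted p = 0.000315). In these 3 transcripts no RAHS-14 array came near the Vagad range. A probe set annotated both as lysozyme and as a metal tolerance protein (Ghi6449.1.A1_at) averaged 880.4 ± 149 in Vagad and 21.5 ± 4.41 in RAHS-14 (SD, n = 3 each; log2 difference 5.36, adjusted p = 0.00181). An actin-7 probe set (Ghi1825.1.S1_at), for a protein of the cytoskeleton, averaged 352 ± 62.8 in Vagad and 28.7 ± 9.32 in RAHS-14 (log2 difference 3.65, adjusted p = 0.0082).

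Other leading transcripts were expressed in both genotypes and were raised in Vagad. Expansin-like B1 (GhiAffx46297.1.S1_s_at), of a family of wall proteins, read 2974, 2574 and 2818 in Vagad and 108, 71.3 and 98.8 in RAHS-14 (log2 difference 4.93 with a standard error of 0.18, adjusted p = 0.00146). Osmotin-like protein (Ghi10646.1.S1_s_at), an antifungal protein that also gathers in plants under osmotic stress, read 5966, 7429 and 7647 in Vagad and 355, 311 and 334 in RAHS-14 (log2 difference 4.39 with a standard error of 0.12, adjusted p = 0.000716). A receptor kinase-related transcript (Ghi5773.1.S1_at) read 7483, 6660.5 and 6485 in Vagad and 639, 642 and 498 in RAHS-14 (log2 difference 3.54 with a standard error of 0.13, adjusted p = 0.00143). These RAHS-14 values were clearly above the floor, and, as in every called probe set, no array of one genotype reached the range of the other. Endochitinase (Ghi6521.1.S1_at), which cuts the chitin of fungal walls, averaged 3812 ± 196 in Vagad and 454 ± 29.0 in RAHS-14 (log2 difference 3.07, adjusted p = 0.0005).

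**Figure D2:**
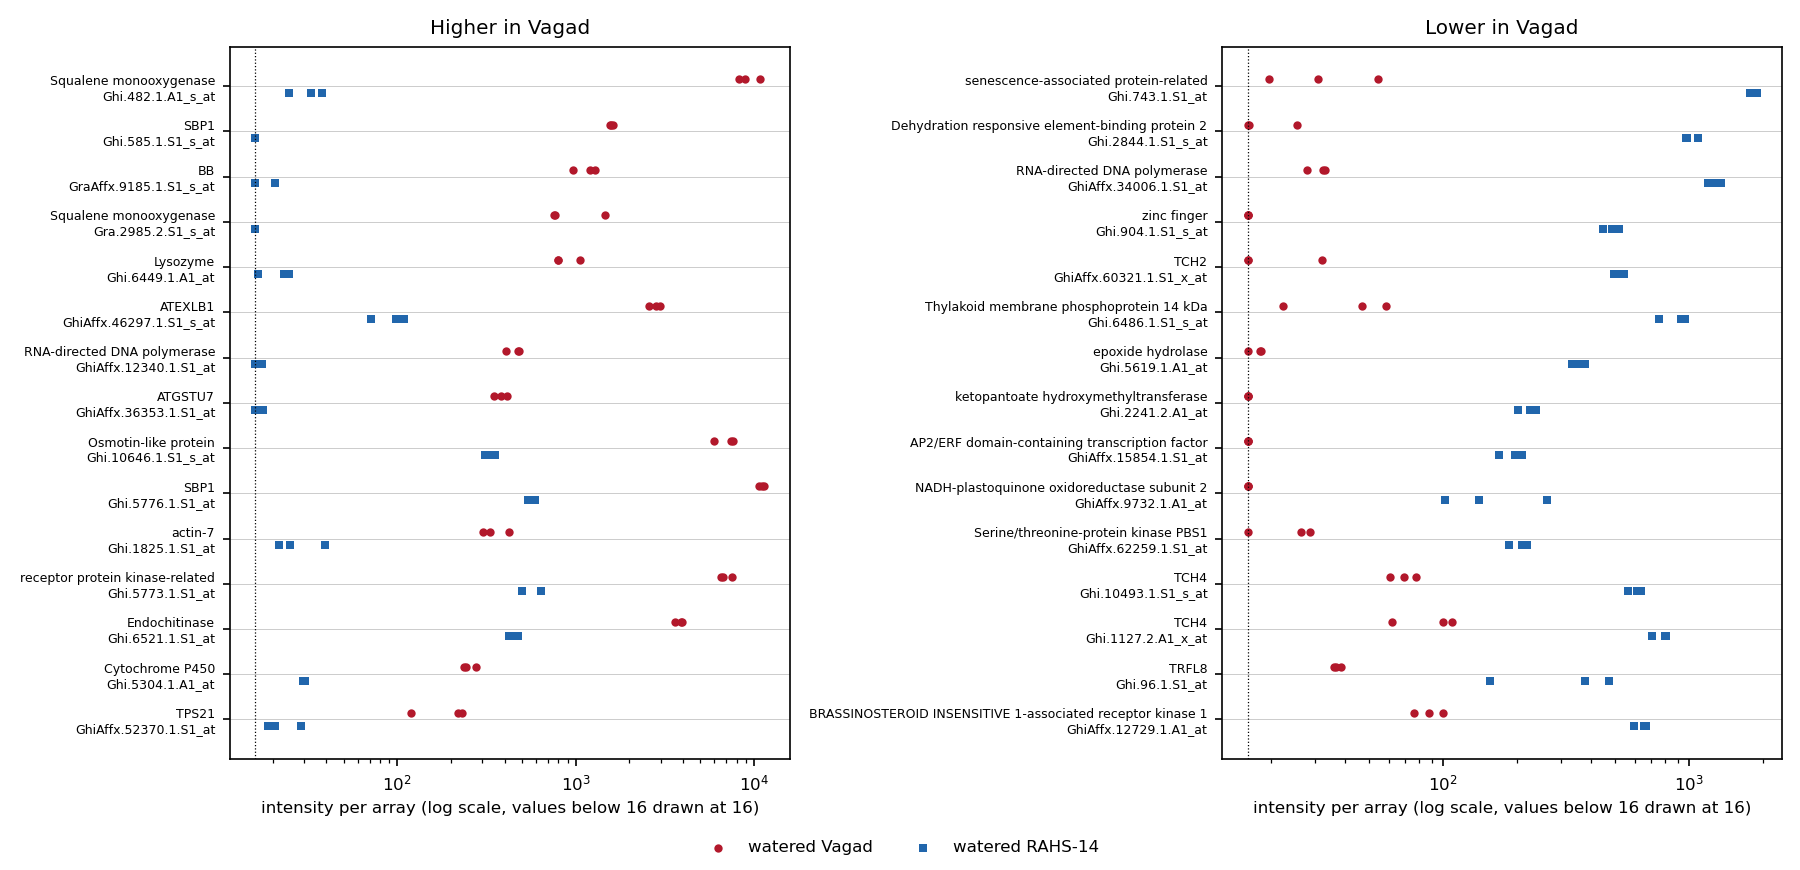
Intensity per array on a log axis for the 15 named probe sets with the largest difference in each direction, red circles for watered Vagad and blue squares for watered RAHS-14, 3 arrays each. The dotted line is the floor of 16, at which lower values are drawn. No pair of groups overlaps, which holds for every called probe set, and in many rows one genotype lies at or near the floor.

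The transcript with the largest deficit in Vagad was annotated as senescence-associated. Ghi743.1.S1_at read 19.6, 54.4 and 30.9 in Vagad and 1768, 1881 and 1834 in RAHS-14 (log2 difference -5.83 with a standard error of 0.40, adjusted p = 0.00666). A DREB2 factor, of a family that binds dehydration-responsive promoters (Ghi2844.1.S1_s_at), read 13.2, 25.4 and 16.2 in Vagad and 1086, 983 and 969.6 in RAHS-14 (log2 difference -5.75 with a standard error of 0.21, adjusted p = 0.00146). A second probe set of that transcript cluster, Ghi2844.1.A1_at, read 9.65, 6.91 and 1.97 in Vagad and 54.7, 96.5 and 45.8 in RAHS-14, at least 3.89-fold lower in Vagad (adjusted p = 0.0431). This second probe set was called in 1 of the 6 fits that left out 1 array. Both read near or below the floor in Vagad.

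A reverse transcriptase (GhiAffx34006.1.S1_at) read 32.9, 32.4 and 27.8 in Vagad and 1347, 1282 and 1196 in RAHS-14 (log2 difference -5.36 with a standard error of 0.09, adjusted p = 0.000279). Ghi904.1.S1_s_at, annotated both as a RING zinc finger protein and as a NOT2/NOT3/NOT5 regulator, read 1.66, 5.67 and 5.74 in Vagad, all below the floor, against 518, 446 and 485 in RAHS-14, at least 30.1-fold lower in Vagad (adjusted p = 0.000111). Ghi5619.1.A1_at, named for an epoxide hydrolase that can act on fatty acid epoxides, read 18.0, 18.1 and 1.08 in Vagad and 334, 377 and 351 in RAHS-14, at least 20.4-fold lower in Vagad (adjusted p = 0.000279). All 3 of these were at or near the floor in Vagad and clearly detected in RAHS-14. The putative protein kinase PBS1 (GhiAffx62259.1.S1_at), the relative of an Arabidopsis kinase in disease resistance, averaged 23.2 ± 7.58 in Vagad and 204 ± 17.7 in RAHS-14 (log2 difference -3.15, adjusted p = 0.00947). The BRI1-associated receptor kinase (GhiAffx12729.1.A1_at), a co-receptor for brassinosteroids in Arabidopsis, is also matched to the receptor-like kinase RLK1 and averaged 87.8 ± 11.8 in Vagad and 641 ± 36.7 in RAHS-14 (log2 difference -2.88, adjusted p = 0.00184).

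Of the 30 leading named probe sets, 15 in each direction, 24 were called in each of the 6 fits that left out 1 array. The other 6 were terpene synthase TPS21 (GhiAffx52370.1.S1_at), the thylakoid phosphoprotein (Ghi6486.1.S1_s_at), the NADH-plastoquinone oxidoreductase subunit (GhiAffx9732.1.A1_at), PBS1 (GhiAffx62259.1.S1_at), one TCH4 probe set (Ghi1127.2.A1_x_at) and TRFL8 (Ghi96.1.S1_at). The thylakoid phosphoprotein read 58.6, 22.3 and 46.7 in Vagad and 966, 929 and 755 in RAHS-14. The oxidoreductase subunit, annotated elsewhere in the tables as NADH dehydrogenase subunit 2, read 2.07, 4.58 and 7.18 in Vagad and 101, 264 and 139.9 in RAHS-14. TRFL8, a MYB-like telomere-binding relative, read 36.5, 38.5 and 35.8 in Vagad and 376, 155 and 471 in RAHS-14, where the second array was well below the other RAHS-14 arrays. As in all 430 called probe sets, the genotypes did not overlap in these 3. They were called in 2, 2 and 1 of the 6 fits that left out 1 array.

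The sequences of the array probes were not used here, but the study designed PCR primers on the transcripts of 6 probe sets that were called in watered roots, 3 higher and 3 lower in Vagad. For XTR4 (GraAffx8742.1.S1_at) and a lysozyme or acidic endochitinase (Ghi6435.1.A1_at), both higher, 1 primer ends in a hyphen in the table and neither pair is given. The primers of the other 4 are given, 5′ to 3′, since they tie each of these probe sets to a stretch of its transcript that can be searched for.
GhiAffx12340.1.S1_at (RNA-directed DNA polymerase or protein kinase), forward: atggcataacagcgaagaaaactg
GhiAffx12340.1.S1_at, reverse: gttttgggcaatatccgactgaa
GhiAffx60321.1.S1_x_at (TCH2), forward: acgcacacctggacatggaa
GhiAffx60321.1.S1_x_at, reverse: gcgtatattgcgtgtgtgtaacctt
GhiAffx12729.1.A1_at (BRI1-associated receptor kinase), forward: gaatccctcactgcgaaaatatcc
GhiAffx12729.1.A1_at, reverse: ttcgaaaccattctggtgctaca
Ghi6528.1.S1_at (Meloidogyne-induced cotton 1), forward: gcatccttcagccctacaatagc
Ghi6528.1.S1_at, reverse: ggatatgagcttcggaggaaaatg

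The counts over 36 gene families that follow come almost wholly from the probe sets that the study had listed for watered roots. Of 214 such members, each counted once, 100 were higher and 85 lower in watered Vagad. Of 189 members listed for droughted roots only, 5 (2.65%) were higher, against 0.807% of all probe sets, and 0 were lower by limma, with 2 at least 2-fold lower at an unadjusted p under 0.05 and 0 by the methods' t-test after adjustment. The 5 were 2 of 6 flavonoid probe sets, 1 of 9 AP2/ERF and DREB factors, 1 of 28 other wall enzymes and 1 of 3 lipases and patatins. In the other 25 families with such members none of them was called. Over all probe sets 0.807% were higher and 0.982% were lower, and these shares apply to every family count below, whether or not repeated there. They are therefore given for reference, and nothing about a family is read from them.

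Among the gene families, the called terpene and sterol probe sets were higher in Vagad. Of 7 probe sets, 6 were higher and 0 lower, against 0.807% higher over all probe sets, and the median log2 difference was 2.53, against 0 over all. All 6 were among those listed for watered roots. Beside the squalene monooxygenases, a 1,8-cineole synthase relative (GhiAffx7956.1.S1_at), which makes a volatile monoterpene in Arabidopsis, read 2833, 2886 and 3188 in Vagad and 577, 539 and 436 in RAHS-14 (log2 difference 2.53 with a standard error of 0.13, adjusted p = 0.00293). A probe set for TPS21, the caryophyllene synthase of Arabidopsis (GarAffx6150.1.S1_at), read 217, 219.6 and 207 in Vagad and 42.6, 42.7 and 44.5 in RAHS-14 (log2 difference 2.31 with a standard error of 0.03, adjusted p = 0.000177). The arrays of each genotype agreed closely for both. Another probe set named for TPS21, and also for a hydroxyproline-rich glycoprotein (GhiAffx52370.1.S1_at), averaged 189 ± 60.8 in Vagad and 22.8 ± 5.36 in RAHS-14 (log2 difference 3.02, adjusted p = 0.02). Farnesyl pyrophosphate synthase (Ghi3549.2.S1_s_at), which feeds both branches, averaged 1751 ± 24.6 in Vagad and 1136 ± 135 in RAHS-14, a log2 difference of 0.63 that did not reach 2-fold (adjusted p = 0.0388).

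The called probe sets of flavonoid synthesis were higher as well. Of 13 probe sets 9 were higher, 0 were lower and 4 were not called, and each of the 13 log2 differences was positive, from 0.63 to 2.05 with a median of 1.23. Of the 13, 6 were listed by the study for droughted roots only, and 2 of these 6 were higher in watered Vagad. Chalcone synthase (Gra207.1.A1_s_at), which takes the first step, read 2427, 2325 and 2558 in Vagad and 684, 648 and 667 in RAHS-14 (log2 difference 1.87 with a standard error of 0.04, adjusted p = 0.000587). Leucocyanidin reductase (Ghi2177.1.S1_s_at), which makes the catechin units of condensed tannins, read 1040.3, 1049.9 and 1007 in Vagad and 495, 495 and 482 in RAHS-14 (log2 difference 1.07 with a standard error of 0.02, adjusted p = 0.000396). Leucoanthocyanidin dioxygenase (Ghi1234.1.S1_s_at), on the branch to anthocyanidins, averaged 3078 ± 245 in Vagad and 1309 ± 30.1 in RAHS-14 (log2 difference 1.23, adjusted p = 0.00329). All 3 probe sets were at least 2-fold brighter in Vagad. Another chalcone synthase probe set (Gra2508.1.A1_x_at) averaged 9850.3 ± 426 in Vagad and 6076 ± 191 in RAHS-14 and was under 2-fold (log2 difference 0.70, adjusted p = 0.00488). Chalcone synthase is a multigene family, and probe sets ending in _x_at or _s_at can read several members.

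The called ethylene and jasmonate probe sets had the same direction. ACC oxidase makes ethylene, and 5 of its 6 probe sets were higher in Vagad with a median log2 difference of 2.09. Ghi7070.1.S1_s_at read 729, 764 and 789 in Vagad and 167, 159 and 142 in RAHS-14 (log2 difference 2.29 with a standard error of 0.07, adjusted p = 0.00101). Ghi6918.2.A1_at read 2219.97, 2952 and 2788 in Vagad and 524, 595 and 398 in RAHS-14 (log2 difference 2.40 with a standard error of 0.20, adjusted p = 0.00996). Its partner in the transcript cluster, Ghi6918.1.S1_x_at, was far brighter and was not called, at 11464 in Vagad and 8092 in RAHS-14 (log2 difference 0.50). The spread between Vagad arrays was wide for Ghi7.1.S1_x_at, at 74.4, 141 and 204, against 16.0, 23.4 and 12.5 in RAHS-14 (adjusted p = 0.0417). Ghi7033.1.A1_at, not called, averaged 163 ± 40.5 in Vagad and 81.3 ± 9.22 in RAHS-14 (adjusted p = 0.1). Leaving out any array but Vagad replicate 1 lowered the 5 called ACC oxidases to between 1 and 3. Of 6 jasmonate and oxylipin probe sets 5 were higher and 0 lower, and 3 were higher without Vagad replicate 1, RAHS-14 replicate 2 or RAHS-14 replicate 3. Lipoxygenase LOX1 (Ghi234.1.S1_s_at), which oxidises linolenic acid, averaged 1733 ± 103 in Vagad and 583 ± 38.1 in RAHS-14 (log2 difference 1.57, adjusted p = 0.00227). JAZ3, a repressor of jasmonate signalling that jasmonate itself induces (GhiAffx42068.1.S1_at), averaged 1892 ± 10.5 in Vagad and 526 ± 58.8 in RAHS-14 (log2 difference 1.85, adjusted p = 0.00283). Allene oxide cyclase (Ghi2998.2.S1_x_at), a step of jasmonate synthesis, was not called, at 887 ± 146 in Vagad and 813 ± 46.6 in RAHS-14. Another probe set of that transcript cluster, Ghi2998.1.A1_x_at, was called higher in Vagad, with a log2 difference of 1.52.

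Of 18 probe sets for pathogenesis-related and osmotin-like proteins, 12 were higher, 1 was lower and 5 were not called, with a median log2 difference of 1.44. Over all probe sets 0.807% were higher and 0.982% lower. The 12 and the 1 were all among the 16 members listed for watered roots, and the 2 others were not called. The lower probe set was not called without any 1 of the RAHS-14 arrays. The wound-induced protein WIN2 (GhiAffx25472.1.A1_s_at), a chitin-binding protein of potato, read 3868, 3595 and 3479 in Vagad and 735, 720.3 and 776 in RAHS-14 (log2 difference 2.29 with a standard error of 0.05, adjusted p = 0.000587). Germin-like protein (GhiAffx22764.1.A1_at), of a family of cell wall proteins, read 331, 333 and 319 in Vagad and 139, 135 and 137 in RAHS-14 (log2 difference 1.26 with a standard error of 0.02, adjusted p = 0.000279). Both differences were many times the spread between arrays. Of 3 curculin-like lectins, which bind mannose, 3 were higher, and 1 without Vagad replicate 2 or any RAHS-14 array. Among them GhiAffx3185.1.S1_at averaged 2253 ± 74.5 in Vagad and 449 ± 47.3 in RAHS-14 (log2 difference 2.33, adjusted p = 0.00143).

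Most of the called detoxification and redox probe sets were also higher. Of members listed for droughted roots only, 0 of 2 glutathione transferases and redoxins and 0 of 2 cytochromes P450 were called. The same held for 0 of 3 lignin and phenol enzymes, 0 of 2 UDP-glycosyltransferases and 0 of 1 peroxidases, while 1 of 3 lipases and patatins was higher. Of 10 glutathione transferases, glutaredoxins and nucleoredoxins 7 were higher and 0 lower, with a median log2 difference of 1.61. Nucleoredoxin was read by 2 probe sets of 1 transcript cluster, and Ghi787.2.S1_s_at read 3553, 3142 and 3183 in Vagad and 657, 628 and 627 in RAHS-14 (log2 difference 2.37 with a standard error of 0.06, adjusted p = 0.000588). Cytochrome P450 Ghi5304.1.A1_at read 243, 277 and 236 in Vagad and 30.4, 30.2 and 29.7 in RAHS-14 (log2 difference 3.06 with a standard error of 0.07, adjusted p = 0.000587). Its partner probe set Ghi5304.2.A1_x_at was also higher (log2 difference 2.65, adjusted p = 0.0233), but was called in 1 of the 6 fits that left out 1 array. Of 7 cytochrome P450 probe sets 4 were higher and 1 was lower, and 2 were higher without Vagad replicate 2 or RAHS-14 replicate 1 or 3. Counts of higher and lower were 5 and 0 of 10 for laccases, polyphenol oxidases and other lignin and phenol enzymes, 4 and 0 of 6 for peroxidases and peroxiredoxins, 3 and 0 of 7 for UDP-glycosyltransferases, and 5 and 0 of 7 for lipases and patatins. The higher peroxidases were 1 without Vagad replicate 2 or 3 or RAHS-14 replicate 3, the higher glycosyltransferases 1 without any array but RAHS-14 replicate 2, and the higher lipases 2 or 3 without any array but RAHS-14 replicate 1. Of 7 probe sets named for a response to dehydration 5 were higher in these well watered roots and 0 lower, and 3 when any array but Vagad replicate 1 was left out. The cysteine protease RD19, named in Arabidopsis for its induction by drying (Ghi4724.1.A1_x_at), read 1426, 1471 and 1028 in Vagad and 161, 161 and 181 in RAHS-14 (log2 difference 2.95 with a standard error of 0.17, adjusted p = 0.00388).

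**Figure D3:**
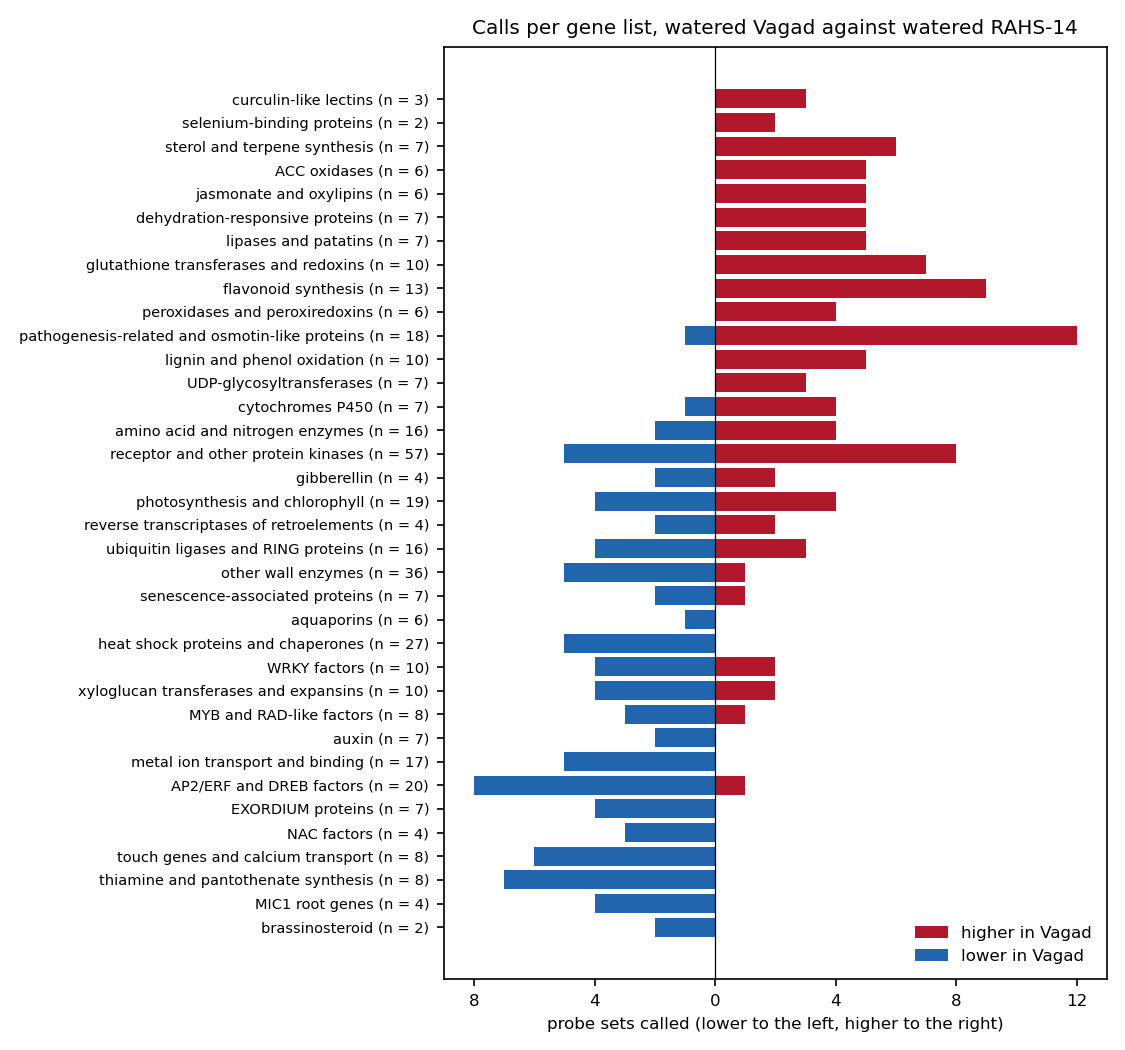
Probe sets called in watered roots for each of 36 gene families, bars to the right for higher and to the left for lower in Vagad, with the number of probe sets in the family in brackets. Families run from those with the largest net share of higher calls to those with the largest net share of lower calls. The study had chosen these probe sets on the same arrays.

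The transcription factors that were called were mostly lower in Vagad. The AP2/ERF and DREB list held 20 probe sets, of which 8 were lower, 1 was higher and 11 were not called, against 0.982% lower over all probe sets. All 8 lower ones were among the 11 members listed for watered roots, and of the 9 listed for droughted roots only 1 was higher and 0 were lower. An AP2/ERF factor matched to RRTF1, a redox-responsive factor of Arabidopsis (GhiAffx15854.1.S1_at), read 8.30, 15.6 and 13.5 in Vagad, all below the floor, against 209.8, 169 and 195 in RAHS-14, at least 11.9-fold lower in Vagad (adjusted p = 0.000588). A further RRTF1 match (Ghi9720.1.S1_at) read 11.1, 1.61 and 1.67 in Vagad and 86.0, 84.6 and 103 in RAHS-14, at least 5.67-fold lower (adjusted p = 0.00116). Only RAHS-14 had arrays above the floor for these 2 probe sets. The count of 8 lower became 4 or 5 when Vagad replicate 3 or any RAHS-14 array was left out. The 1 higher member, an AP2 domain factor (Ghi7074.1.S1_x_at) that was not called without RAHS-14 replicate 1, averaged 651 ± 28.5 in Vagad and 317 ± 15.4 in RAHS-14 (log2 difference 1.04, adjusted p = 0.00304).

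Of 4 NAC factors, which act in stress and senescence, 3 were lower and 0 higher. Of these 3, GhiAffx42192.1.S1_at, matched to ANAC047, was called in 2 of the 6 fits that left out 1 array. A poplar-matched NAC factor (GhiAffx58305.1.S1_s_at) read 231, 238 and 221 in Vagad and 856, 818 and 830.2 in RAHS-14 (log2 difference -1.86 with a standard error of 0.04, adjusted p = 0.000323), and GhiAffx20354.1.S1_at read 672, 619.6 and 573 in Vagad and 2525, 2693 and 2566 in RAHS-14 (log2 difference -2.06 with a standard error of 0.07, adjusted p = 0.00111). WRKY factors, which regulate defence, were split, with 4 of 10 lower and 2 higher. Leaving out any 1 array left 1 or 2 lower, and without Vagad replicate 2 there was 1 higher. Both higher ones were WRKY75, which acts in phosphate starvation and root growth in Arabidopsis, and GhiAffx61976.1.S1_at averaged 1400.2 ± 81.9 in Vagad and 469 ± 14.9 in RAHS-14 (log2 difference 1.58, adjusted p = 0.00111). The lower ones were named for WRKY transcription factor 2, WRKY46 and WRKY70, and Ghi9192.1.S1_s_at, under the first name, is also matched to WRKY40. The WRKY70 probe set GhiAffx2014.1.S1_s_at averaged 50.1 ± 11.6 in Vagad and 162 ± 17.4 in RAHS-14 (log2 difference -1.72, adjusted p = 0.0234). It was called in 2 of the 6 fits that left out 1 array. The other probe set of its transcript cluster, GhiAffx2014.2.S1_at, was brighter and did not differ, at 306 in Vagad and 304 in RAHS-14 (log2 difference 0.01).

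The called probe sets for touch genes and calcium transport were lower in Vagad. Of 8 probe sets for touch-induced calcium-binding proteins and calcium transport 6 were lower and 0 higher, with a median log2 difference of -1.53, and 3 were lower without Vagad replicate 3 or any RAHS-14 array. The probe set annotated as TCH2, a calmodulin-like protein, and in another table as a pectinesterase (GhiAffx60321.1.S1_x_at) read 16.1, 32.0 and 9.84 in Vagad and 495, 534 and 544 in RAHS-14 (log2 difference -4.70 with a standard error of 0.32, adjusted p = 0.00624). A second TCH2 probe set (GhiAffx5986.1.S1_at) read 276, 268 and 293 in Vagad and 885, 805 and 767 in RAHS-14 (log2 difference -1.55 with a standard error of 0.07, adjusted p = 0.00221). The first lay near the floor in Vagad, while the second was clearly expressed in both genotypes. A plasma membrane calcium ATPase (Ghi3763.1.A1_s_at), which pumps calcium out of the cell, averaged 59.8 ± 23.2 in Vagad and 378 ± 48.7 in RAHS-14 (log2 difference -2.72, adjusted p = 0.0234).

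TCH4 is a xyloglucan endotransglucosylase, an enzyme that cuts and rejoins the tethers between cellulose fibres. Ghi10493.1.S1_s_at, named TCH4, read 77.6, 60.9 and 69.4 in Vagad and 640, 613 and 564 in RAHS-14 (log2 difference -3.13 with a standard error of 0.11, adjusted p = 0.00121). Ghi1127.4.S1_x_at, also TCH4, read 125, 176 and 168 in Vagad and 1056, 1065 and 1034 in RAHS-14 (log2 difference -2.77 with a standard error of 0.15, adjusted p = 0.00349). Another TCH4 match (Gra623.2.S1_s_at) averaged 215 ± 20.0 in Vagad and 1234 ± 84.1 in RAHS-14 (log2 difference -2.52, adjusted p = 0.00138). These transcripts were bright in RAHS-14 and more than 4-fold dimmer in Vagad. Related wall genes went the other way, since expansin-like B1 and the xyloglucan transferase XTR4 were higher, so that of 10 xyloglucan transferases and expansins 4 were lower and 2 were higher, and 1 was higher without any array but RAHS-14 replicate 1. XTR4 (GraAffx8742.1.S1_at) read 147, 162 and 166 in Vagad and 15.7, 30.4 and 38.5 in RAHS-14, where 1 of 3 arrays was below the floor (log2 difference 2.57 with a standard error of 0.36, adjusted p = 0.034). Of 7 EXORDIUM probe sets, for secreted proteins that promote brassinosteroid-dependent growth in Arabidopsis, 4 were lower and 0 higher. Of these 4, GhiAffx18859.1.S1_at was called in 0 of the 6 fits that left out 1 array. EXORDIUM Gra744.1.S1_s_at averaged 203 ± 36.6 in Vagad and 778 ± 26.2 in RAHS-14 (log2 difference -1.95, adjusted p = 0.0069).

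The called probe sets of vitamin synthesis were lower in Vagad. Of 8 probe sets for thiamine and pantothenate enzymes 7 were lower and 0 higher, with a median log2 difference of -1.47, and 4 were lower without any 1 of the RAHS-14 arrays. THI1 makes the thiazole ring of thiamine, and Gra70.1.S1_s_at read 404, 416 and 416 in Vagad and 1204, 1175 and 1179 in RAHS-14 (log2 difference -1.53 with a standard error of 0.02, adjusted p = 0.000111). THIC makes the pyrimidine ring, and GraAffx9604.1.S1_s_at read 526, 412 and 411 in Vagad and 1891, 1704 and 2051 in RAHS-14 (log2 difference -2.07 with a standard error of 0.13, adjusted p = 0.00562). Each of the 6 THI1 and THIC probe sets in the list was called lower. Ketopantoate hydroxymethyltransferase (Ghi2241.2.A1_at), the first step to pantothenate, read 6.86, 0.491 and 2.65 in Vagad, all below the floor, against 201, 226 and 238 in RAHS-14, at least 13.8-fold lower in Vagad (adjusted p = 0.000315). A second probe set of that name (Ghi5695.1.A1_at) was dim in both genotypes, at 1.83, 28.1 and 34.3 in Vagad and 20.4, 19.2 and 24.3 in RAHS-14.

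The called root and metal probe sets were lower in Vagad too. All 4 probe sets for MIC1, a small cotton root protein named for its induction by the root-knot nematode, were lower in Vagad, and 2 without Vagad replicate 1 or 3 or RAHS-14 replicate 1 or 2. Ghi6528.1.S1_at, annotated as MIC1 and in another table as a sodium/proton exchanger, read 1790.3, 1559.8 and 1525 in Vagad and 3939, 4404 and 3875 in RAHS-14 (log2 difference -1.33 with a standard error of 0.09, adjusted p = 0.00595). Ghi6546.1.S1_s_at averaged 1236 ± 84.3 in Vagad and 3607 ± 75.4 in RAHS-14 (log2 difference -1.55, adjusted p = 0.00146). These 4 are among the 11 root markers summed above, and the fifth root marker that was lower was an aquaporin. Of 6 aquaporins, the water channels, 1 was lower and 0 higher, and 0 were lower without any 1 array other than Vagad replicate 1. The lower one, PIP2;8 (GraAffx9255.1.S1_x_at), averaged 102 ± 33.8 in Vagad and 526 ± 76.5 in RAHS-14 (log2 difference -2.41, adjusted p = 0.0276), while Ghi6492.1.S1_s_at differed by -0.32 on the log2 scale (adjusted p = 0.0312). Of 17 probe sets for metal transport and binding 5 were lower and 0 higher, and 3 were lower without RAHS-14 replicate 2. The copper transporter (Ghi6075.1.S1_s_at) averaged 67.5 ± 9.19 in Vagad and 285 ± 24.9 in RAHS-14 (log2 difference -2.08, adjusted p = 0.00476), and nicotianamine synthase, which makes a chelator of iron and copper (Ghi1681.1.S1_at), averaged 552 ± 59.5 in Vagad and 1529 ± 158 in RAHS-14 (log2 difference -1.47, adjusted p = 0.00955).

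Of 27 heat shock proteins and chaperones 5 were lower, 0 were higher and 22 were not called, and 2 or 3 were lower without Vagad replicate 2 or any RAHS-14 array. The small heat shock protein Ghi5794.1.A1_s_at averaged 145 ± 2.08 in Vagad and 480.1 ± 32.3 in RAHS-14 (log2 difference -1.72, adjusted p = 0.00101). Hormone genes other than those of ethylene and jasmonate moved in both directions. Both probe sets for gibberellin 3-beta-dioxygenase, which makes active gibberellin, were higher, but 1 without Vagad replicate 1 or RAHS-14 replicate 1 and 0 without any other array. Of the 2, Ghi7938.1.S1_at read 205, 256 and 227 in Vagad and 51.2, 30.0 and 22.3 in RAHS-14 (log2 difference 2.82, adjusted p = 0.0246). Both gibberellin-regulated GASA-type probe sets were lower, but 0 without Vagad replicate 3 or RAHS-14 replicate 1 and 1 without any other array. GASA1 (Ghi10462.1.S1_at) averaged 313 ± 67.7 in Vagad and 833 ± 15.8 in RAHS-14 (log2 difference -1.44, adjusted p = 0.0234). Of 7 auxin genes 2 were lower, but 1 without Vagad replicate 3 and 0 without Vagad replicate 2 or any RAHS-14 array. Protein kinases were divided, with 8 of 57 higher and 5 lower. Without Vagad replicate 2 or 3 or RAHS-14 replicate 1 or 2 there were 5 higher kinases, and without any array but Vagad replicate 2 there were 1 to 3 lower ones. Of the 19 probe sets of photosynthesis and chlorophyll 4 were higher and 4 lower, with 1 or 2 higher without Vagad replicate 2 or any RAHS-14 array, and 2 lower without Vagad replicate 3 or RAHS-14 replicate 3.

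Outside the selection made for watered roots, few named genes were called. Of 625 named probe sets that the study listed for droughted roots only, 6 (0.96%) were higher and 4 (0.64%) were lower in watered Vagad, against 0.807% and 0.982% of all probe sets. Of all calls, 126 of the higher and 109 of the lower probe sets had a usable name. The 2 leading higher probe sets without one were Ghi10826.1.S1_at, with 2331, 2308 and 2355 in Vagad and 58.6, 79.3 and 33.1 in RAHS-14, and GraAffx28538.1.S1_s_at, with 396, 515 and 496 in Vagad and 10.8, 6.39 and 2.44 in RAHS-14. The 2 leading lower ones were Ghi1932.1.S1_at, with 161, 363 and 279 in Vagad and 2094, 2377 and 2250.03 in RAHS-14, and Ghi1092.1.A1_x_at, with 116, 68.3 and 77.7 in Vagad and 615, 695 and 639.9 in RAHS-14. Ghi1932.1.S1_at was called in 2 of the 6 fits that left out 1 array. As in every called probe set, the genotypes did not overlap in these 4. The supplementary tables give no usable name for them, while the text of the study names Ghi10826.1.S1_at for a glycosyl hydrolase family and Ghi1932.1.S1_at, an unknown protein in those tables, for an outer membrane translocase.

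The array was built from sequences of several cotton species, none of them Gossypium herbaceum by the prefixes of its probe sets. Probe sets with the prefixes Ghi and GhiAffx were called in 2.06% and 2.31% of cases, against 0.789% for Gra and 1.02% for GraAffx. Within transcript clusters, 126 called probe sets had at least 1 partner, which gave 161 pairs. Pairs were counted from each called member, so a pair with both members called counts from both sides. The partner had the same sign in 58.4% of these pairs, against 39.1% of pairs counted in both orders over all probe sets. In 109 pairs the partner averaged under 100 in both genotypes and could show little. In the other 52, the partner had the same sign in 38 and the same call in 19, while in 15 it differed by less than 1.2-fold, and no partner was called the other way. A difference in transcript level and a difference in the sequence that the probes read cannot be told apart on such an array.

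The arrays of droughted roots played no part in the calls and give a separate reading of the same genotypes. Replicates 1 and 2 of droughted Vagad stand apart from all other arrays in their brightness, so replicate 3 alone was set against the 3 droughted RAHS-14 arrays, as a description with no test. Of the 194 higher probe sets 43 (22.2%) were at least 2-fold higher there too, against 3.27% of all probe sets, and 16 were at least 2-fold lower. Of the 236 lower ones 82 (34.7%) were at least 2-fold lower there too, against 4.11% of all probe sets, and 18 were at least 2-fold higher. In sign alone 114 (58.8%) of the higher and 154 (65.3%) of the lower probe sets agreed, against 41.6% and 42.8% of all. With all 3 droughted Vagad arrays it was 132 (68.0%) of the higher and 111 (47.0%) of the lower, against 67.1% and 32.9% of all, so that the share among the higher calls was near that of all probe sets. The larger the watered difference, the more often it was still there. Among probe sets at least 8-fold higher in watered Vagad 11 of 21 were at least 2-fold higher in droughted Vagad, against 12 of 40 between 4- and 8-fold and 20 of 133 between 2- and 4-fold. Among those at least 8-fold lower it was 11 of 15, against 13 of 33 and 58 of 188.

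Of the 15 higher probe sets that were at the floor on all 3 watered RAHS-14 arrays, 8 were at least 2-fold higher in droughted Vagad too, and of the 18 lower ones at the floor on all 3 watered Vagad arrays 8 were at least 2-fold lower. Several of the leading transcripts kept their difference on droughted Vagad replicate 3, and less of it on replicates 1 and 2. Ghi743.1.S1_at read 86.0, 550.1 and 22.9 on the 3 droughted Vagad arrays and averaged 2168 ± 117 in droughted RAHS-14 (SD, n = 3 arrays). The DREB2 probe set Ghi2844.1.S1_s_at read 894, 924 and 12.8 in droughted Vagad and averaged 757 ± 60.9 in droughted RAHS-14. Replicates 1 and 2 of droughted Vagad were thus as bright as RAHS-14 for DREB2, and only replicate 3 kept the difference. The reverse transcriptase GhiAffx34006.1.S1_at read 382, 76.0 and 23.9 in droughted Vagad and averaged 1272 ± 85.8 in droughted RAHS-14. BIG BROTHER (GraAffx9185.1.S1_s_at) read 352, 415 and 968 in droughted Vagad and averaged 39.4 ± 10.8 in droughted RAHS-14. With all 3 droughted Vagad arrays the log2 differences of these 4 were -4.40, -1.68, -3.84 and 3.76.

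On droughted replicate 3 other leading probe sets also kept their direction by over 4-fold, and 7 of them are given first. GSTU7 (GhiAffx36353.1.S1_at) and GhiAffx12340.1.S1_at were higher in Vagad by at least 4.07 and at least 5.08 on the log2 scale, lower bounds since droughted RAHS-14 averaged below the floor. Actin-7 (Ghi1825.1.S1_at) was higher, with a log2 difference of 3.89. For Ghi904.1.S1_s_at, TCH2 (GhiAffx60321.1.S1_x_at) and epoxide hydrolase (Ghi5619.1.A1_at) replicate 3 of droughted Vagad was below the floor, and the log2 differences were -5.54, -5.40 and -3.68 or further below 0. The BRI1-associated kinase (GhiAffx12729.1.A1_at) had a log2 difference of -2.50. With all 3 droughted Vagad arrays these 7 kept their signs, with log2 differences from 1.86 to 3.48 for the higher, the lowest of them a bound, and from -3.81 to -2.89 for the lower ones.

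Squalene monooxygenase and SBP1 had smaller gaps under drought, with RAHS-14 brighter than when watered. Ghi482.1.A1_s_at read 3457, 3012 and 9167 in droughted Vagad and averaged 2539.9 ± 152 in droughted RAHS-14, against watered means of 9314 ± 1287 for Vagad and 31.7 ± 6.64 for RAHS-14. SBP1 at Ghi585.1.S1_s_at read 1120.3, 1997 and 2311 in droughted Vagad and averaged 443 ± 55.6 in droughted RAHS-14, which had been below the floor when watered. SBP1 at Ghi5776.1.S1_at read 828, 905 and 2184 in droughted Vagad and averaged 3174 ± 147 in droughted RAHS-14, against watered means of 11027 ± 380.3 for Vagad and 570.03 ± 26.0 for RAHS-14. There Vagad was dimmer and RAHS-14 brighter than when watered, and the sign turned, with a log2 difference of -0.54 on replicate 3 and -1.43 with all 3 droughted Vagad arrays.

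Other differences were seen under watering and not on droughted replicate 3. Osmotin-like protein (Ghi10646.1.S1_s_at) read 149 in droughted Vagad and averaged 497 ± 47.0 in droughted RAHS-14, with -0.46 on the log2 scale when all 3 droughted Vagad arrays are used. The receptor kinase-related Ghi5773.1.S1_at read 145, 566 and 34.1 in droughted Vagad and averaged 62.9 ± 5.39 in droughted RAHS-14. The high Vagad levels of watered roots were not there on replicate 3, while replicates 1 and 2 of droughted Vagad stayed above RAHS-14 for Ghi5773.1.S1_at. TCH4 (Ghi10493.1.S1_s_at) read 109 in droughted Vagad and averaged 85.9 ± 7.89 in droughted RAHS-14, where the high level of watered RAHS-14 was gone. Of the 13 flavonoid probe sets 12 were lower in droughted Vagad than in droughted RAHS-14, on replicate 3 and with all 3 arrays, and chalcone synthase (Gra207.1.A1_s_at) read 1509.7 in droughted Vagad and averaged 3132 ± 102 in droughted RAHS-14. MIC1 turned round, with Ghi6528.1.S1_at at 347 in droughted Vagad and 9.11 ± 7.16 in droughted RAHS-14. TCH4, chalcone synthase and MIC1 are given for replicate 3, and with all 3 droughted Vagad arrays their log2 differences were -0.53, -2.48 and at least 5.49.

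**Figure D4:**
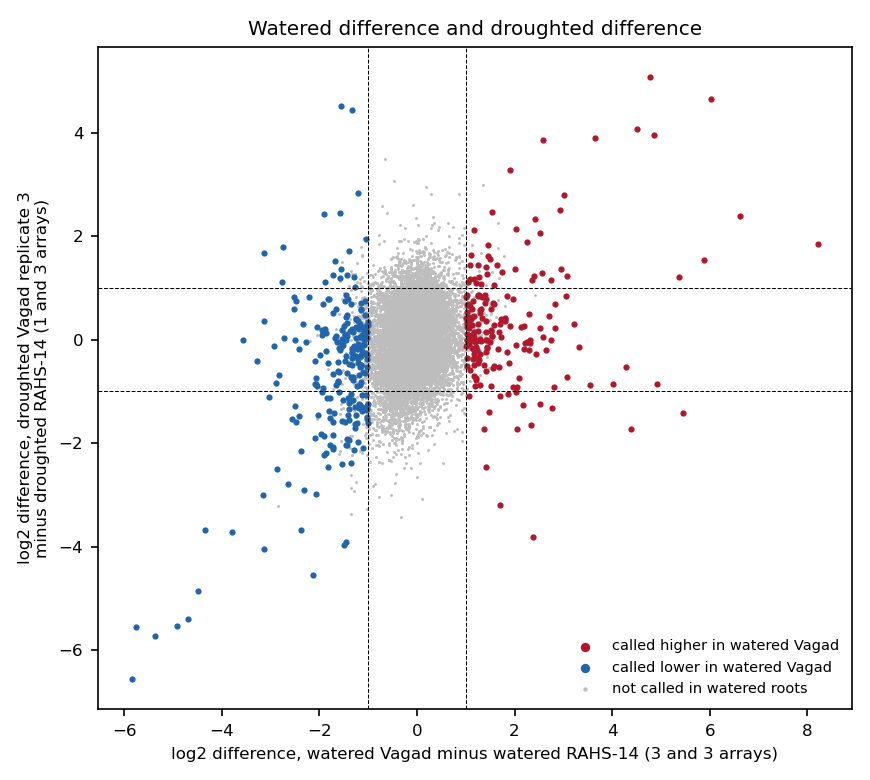
Log2 difference between the droughted genotypes (Vagad replicate 3 minus the mean of 3 RAHS-14 arrays) against the watered log2 difference, 1 point per probe set, red for those called higher and blue for those called lower in watered Vagad. Dashed lines mark 2-fold. The far left points, below -4 when watered, also lie below -3 under drought, while many called points lie between the horizontal lines.

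**Figure D5:**
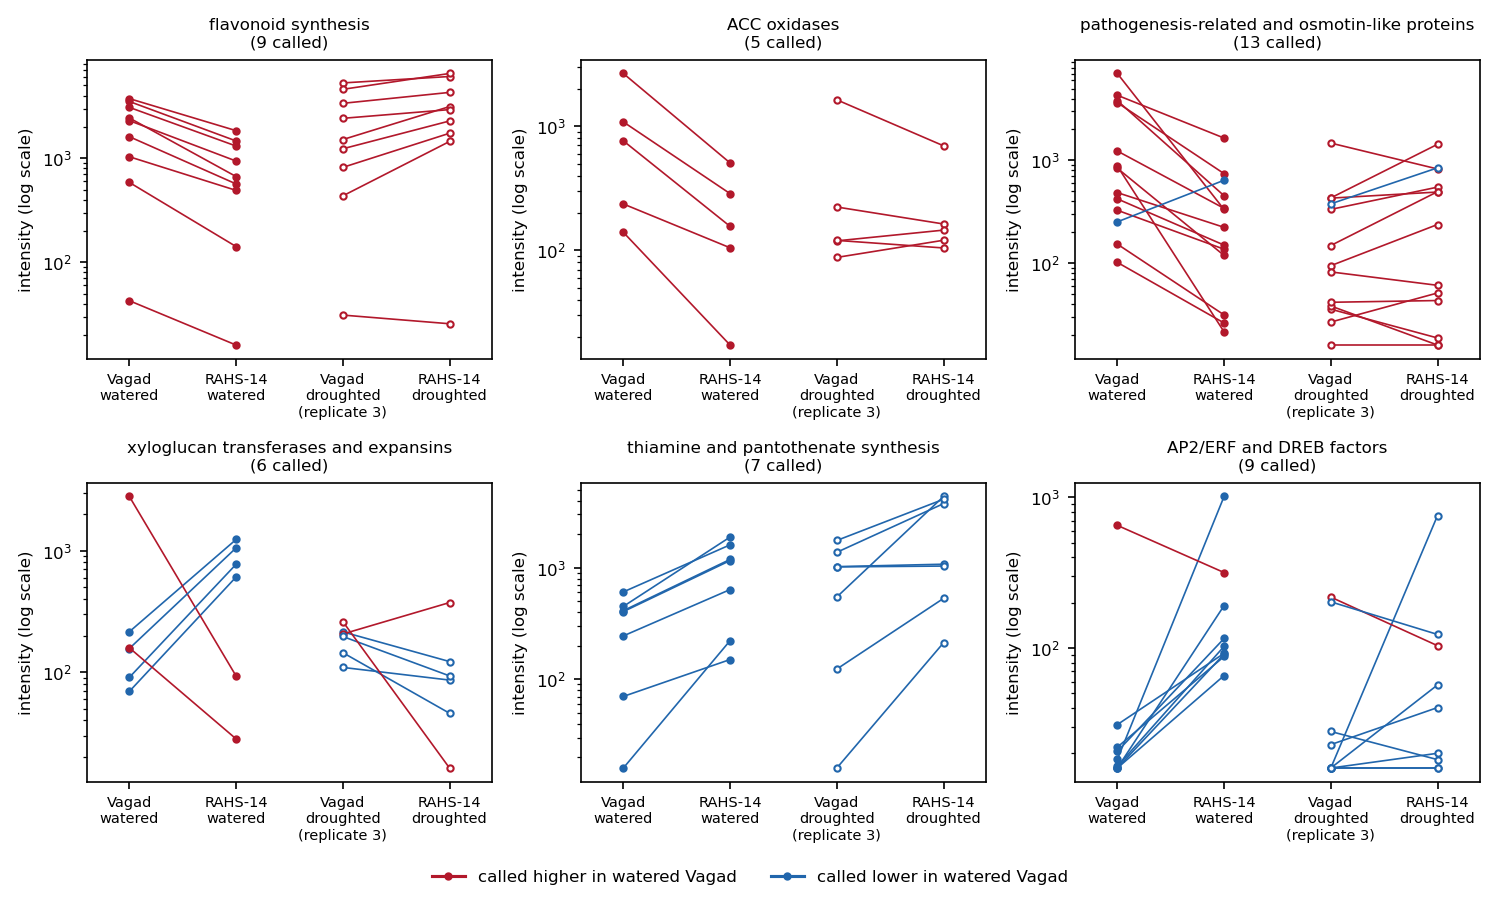
Intensity on a log axis of the called members of 6 gene families, filled points for the means of watered Vagad and watered RAHS-14 (n = 3 arrays each), open points for droughted Vagad replicate 3 and the mean of 3 droughted RAHS-14 arrays, with values below 16 drawn at 16. Lines join the genotypes within a condition, red where Vagad was higher and blue where it was lower in watered roots. The 4 xyloglucan lines that were lower in watered Vagad turn round under drought and most flavonoid lines do too, while 5 of the 7 thiamine and pantothenate lines keep their direction by over 2-fold.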

How the data were processed

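The authors hybridised root RNA to Affymetrix cotton arrays and deposited the MAS5 intensity of each probe set, scaled per array to a common target, linear and not log transformed. No version of MAS5 was given in the sources used here. The labels number 3 replicates per group, described by the methods as biological, and p-values measure the spread between them. The methods also mention RMA values and fold changes of the authors' own, which were not used. Intensities were floored at 16 and taken to log2, and the 6 watered arrays were fitted with limma 3.58.1 in R 4.3.3 with Benjamini-Hochberg adjustment over all 24029 probe sets. The number of arrays limits the precision. On simulated data with 200 changed probe sets of 24029, the fit recovered 25.8% of those with a log2 change of 1. It recovered 89.6% at 2 and 92.5% at 3, and made 0 false calls. At a log2 change of 1 the 2-fold minimum itself drops part of them, whatever the number of arrays. The changed probe sets were of middle brightness in RAHS-14, well above the floor, so the shares do not cover dim probe sets.

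Members, gene lists and tests were chosen with earlier results of these data known. The probe sets named are the 15 named ones with the largest difference in each direction, the 2 leading unnamed ones, up to 4 of each list by p, the called members of short lists, and clusters with more than 1 call. Farnesyl pyrophosphate synthase, allene oxide cyclase, XTR4, Ghi6435.1.A1_at, Ghi7033.1.A1_at and Ghi5695.1.A1_at fall outside this rule and were chosen after their values were seen. The same is true of the cluster partners GhiAffx2014.2.S1_at, Ghi6918.1.S1_x_at and Ghi2998.1.A1_x_at. Alternatives changed the arrays in the fit, the replicate block, the test, the fold minimum, scaling, filter, weights, prior and floor, and left out each array. The PCR primer sequences are those of the study.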

Additional observations from a re-analysis of the deposited data

Results flagged for a closer look

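For 6 of the probe sets described, the difference between the genotypes under watering and that under drought were themselves different, by the interaction term of a limma fit over all 12 arrays, which includes droughted Vagad replicates 1 and 2 that stand apart. The 6 were chosen after the data were seen, and an interaction above 0 means a larger value of Vagad minus RAHS-14 under watering. Squalene monooxygenase (Ghi482.1.A1_s_at) had an interaction of 7.36 (adjusted p = 0.00228). Its watered difference was 8.21 on the log2 scale, and on droughted replicate 3 Vagad read 9167, against 2539.9 ± 152 in RAHS-14 (SD, n = 3). SBP1 had an interaction of 4.66 at Ghi585.1.S1_s_at (adjusted p = 0.00287) and of 5.70 at Ghi5776.1.S1_at (adjusted p = 0.00235), where droughted Vagad replicate 3 read 2184 and droughted RAHS-14 averaged 3174 ± 147. Expansin-like B1 (GhiAffx46297.1.S1_s_at) had an interaction of 6.79 (adjusted p = 0.00228), with 206 on droughted Vagad replicate 3 and 373 ± 31.6 in droughted RAHS-14. Endochitinase (Ghi6521.1.S1_at) had an interaction of 3.60 (adjusted p = 0.0183), with 334 on droughted Vagad replicate 3 and 549.8 ± 50.1 in droughted RAHS-14. MIC1 (Ghi6528.1.S1_at) alone among the 6 ran the other way, with an interaction of -6.82 (adjusted p = 0.00228). Its 3 droughted Vagad arrays read 895, 1197 and 347, and the 3 droughted RAHS-14 arrays 12.8, 0.859 and 13.6, all below the floor.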

How the results depend on the processing

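Against 194 higher and 236 lower probe sets, a fit of all 12 arrays called 28 and 20, and no fold minimum gave 631 and 706. The methods' t-test called 391 lower probe sets at an unadjusted p, and a floor of 64 left 142 lower ones. Leaving out 1 array gave 124 to 167 higher and 109 to 166 lower probe sets. A block for the replicate number called 48 and 23, and same-numbered arrays of the 2 genotypes showed no shared deviation (correlations -0.023, -0.0022 and 0.015), so the numbers do not pair the arrays. Quantile normalization gave 218 and 185, and median centring 254 and 161. The other alternatives kept both counts within 1.5 times. No call among the 154 named probe sets called changed sign under any alternative. The genotypes did not overlap in any of them, so a change of sign was hardly possible. Many of the 154 lost their call, 120 in the fit of all 12 arrays, 113 with the replicate block and 27 to 47 when 1 array was left out. Of the 430 calls 268 had the same sign on droughted replicate 3, 125 by at least 2-fold, and 243 with all 3 droughted Vagad arrays. The number of arrays, and the floor for dim probe sets, limit what can be seen.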
